A study of Mus musculus with 96 samples.

Results

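Cartilage was sampled as 3 wild-type and 3 Scx-/- libraries, which are 6 of the 96 libraries of a survey of 16 organs and tissues of wild-type and Scx-/- mice. The members were taken from the labels of tissue and genotype alone. All mice were 3 weeks old, wild-type mice served as the control, and no group received a treatment. The sources used here name neither the strain nor the allele nor the sex of the mice, and do not say whether the 3 libraries of a group came from separate mice, so the p-values measure the spread between these samples, which may be partly technical. The comparison asks which cartilage genes differed in level when Scx was deleted.

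Scx encodes scleraxis, a basic helix-loop-helix transcription factor of tendon and ligament progenitors, and it is also active in the cells that form the junction between tendon and cartilage. Cartilage is built by chondrocytes, which secrete type II collagen and aggrecan under the control of Sox9, and which in the growth plate enlarge and switch to type X collagen before bone replaces them. Signaling by bone morphogenetic proteins (BMP) and transforming growth factor beta (TGF-beta) acts on both steps, through receptors that phosphorylate Smad proteins and through many secreted and intracellular inhibitors.

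The libraries held 205359 to 276018 read counts each, with 7516 to 8821 genes detected. A total of 13534 of the 41575 genes in the table had a count in at least 1 cartilage library and were tested, and their median count over a library was 2. Values of a group are given below in the order of replicates 1 to 3, and CPM stands for counts scaled to a library of 1000000. Over log2(CPM + 1) values the mean correlation between libraries was 0.740 within the wild type, 0.736 within Scx-/-, and 0.738 between genotypes, so libraries of one genotype were no closer to each other than to those of the other genotype.

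Scx itself had 0, 7, and 1 counts in the wild-type libraries and 9, 0, and 0 counts in the Scx-/- libraries. The 9 counts, or 37.2 CPM, stood in the library labelled Scx-/- replicate 1. The 45 Scx-/- libraries of other tissues all had 0, as did 36 of the 48 wild-type libraries of the survey. A count of 0 still allowed 10.9 to 14.6 CPM at these depths (3 counts, counting error only), so Scx was not measurably lower in Scx-/- cartilage. Scx (GRCm38.p6, chr15:76457452-76459458, plus strand) lies within Bop1 (chr15:76452989-76477277, minus strand), which had 6, 0, and 14 counts in each genotype. The sources used here give neither the strand setting of the counting nor the deleted part of Scx, so reads of the 2 genes cannot be told apart and reads outside the deleted part would not test the label.

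The libraries also differed in sex-linked genes. Xist, the RNA that silences one X chromosome in females, had 3, 0, and 158 counts in the wild type and 97, 116, and 20 in Scx-/-. The Y-linked genes Ddx3y, Eif2s3y, Kdm5d, and Uty together had 29, 48, and 0 counts in the wild type and 0, 3, and 60 in Scx-/-. In the other 15 tissues, wild-type replicate 1 had more Xist than Y-linked counts in 15 of 15 and Scx-/- replicate 2 had more Y-linked counts in 14, so these 2 cartilage libraries went the other way from most libraries of the same number, and Scx-/- replicate 3 held both kinds of counts. The labels do not say that a number marks one mouse, and the part of sex in the results was not tested. Because of its Scx counts, results are given with and without the library labelled Scx-/- replicate 1.

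The promoters below are shown because they belong to the genes that passed the test over all 6 libraries. They are RefSeq sequences from 250 bases before to 50 bases after the start site, and capitals mark matches to CANNTG, the E-box letters that basic helix-loop-helix factors recognize, which read the same class on both strands.
Ctrb1 (GRCm38.p6, chr8:111690961-111691260, minus strand): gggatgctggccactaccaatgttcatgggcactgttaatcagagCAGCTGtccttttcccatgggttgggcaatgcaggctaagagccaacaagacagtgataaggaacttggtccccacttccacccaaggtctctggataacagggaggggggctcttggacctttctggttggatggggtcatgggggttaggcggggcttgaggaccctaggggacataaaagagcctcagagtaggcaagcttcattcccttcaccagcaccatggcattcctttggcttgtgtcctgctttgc
Ucp1 (GRCm38.p6, chr8:83290098-83290397, plus strand): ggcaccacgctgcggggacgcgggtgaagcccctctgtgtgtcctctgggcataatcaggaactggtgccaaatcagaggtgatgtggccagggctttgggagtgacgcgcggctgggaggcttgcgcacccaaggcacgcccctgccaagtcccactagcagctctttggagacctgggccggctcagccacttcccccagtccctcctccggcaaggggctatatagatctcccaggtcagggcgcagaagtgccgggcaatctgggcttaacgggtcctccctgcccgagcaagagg
Hba-a1 (GRCm38.p6, chr11:32283422-32283721, plus strand): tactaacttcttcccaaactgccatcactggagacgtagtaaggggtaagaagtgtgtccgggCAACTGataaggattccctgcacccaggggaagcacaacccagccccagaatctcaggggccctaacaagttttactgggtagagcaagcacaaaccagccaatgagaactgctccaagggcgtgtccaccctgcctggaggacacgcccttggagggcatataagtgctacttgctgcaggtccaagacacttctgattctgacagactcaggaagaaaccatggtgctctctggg
The Ctrb1 promoter held CAGCTG, and the Hba-a1 promoter held CAACTG. The Ucp1 window had no match. Of all 32851 promoters of this length in the table, 72.3% held at least 1 such match, and 2 of 3 is near that share.

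The labelled tissue was first compared with marker genes. Of 24 cartilage matrix genes, 22 had counts, among them Col2a1, Acan, Comp, and Hapln1, whereas Matn1 and Col11a2 were at 0 in all 6 libraries. The list took 1.17%, 1.20%, and 0.751% of the counts in the wild type and 2.18%, 0.756%, and 0.360% in Scx-/-. Bone, at 0.743% to 1.37%, overlapped with cartilage, while muscle had 0.0137% to 0.0315%. Genes of fast skeletal muscle took far more, 17.4%, 17.1%, and 15.1% in the wild type and 17.4%, 19.5%, and 15.2% in Scx-/-, against 30.0% to 35.0% in the muscle libraries and 3.23% to 11.3% in bone. The mean was 16.5% ± 1.22 in the wild type and 17.4% ± 2.15 in Scx-/- (SD, n = 3, exact permutation p = 0.4, two-sided), so both genotypes held many counts of skeletal muscle genes. Samples of the survey were pooled after barcoding, and whether these counts came from muscle in the dissected tissue or from other pooled samples was not tested. In such bulk samples, fewer cells of a type and less RNA per cell cannot be told apart.

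**Figure D1:**
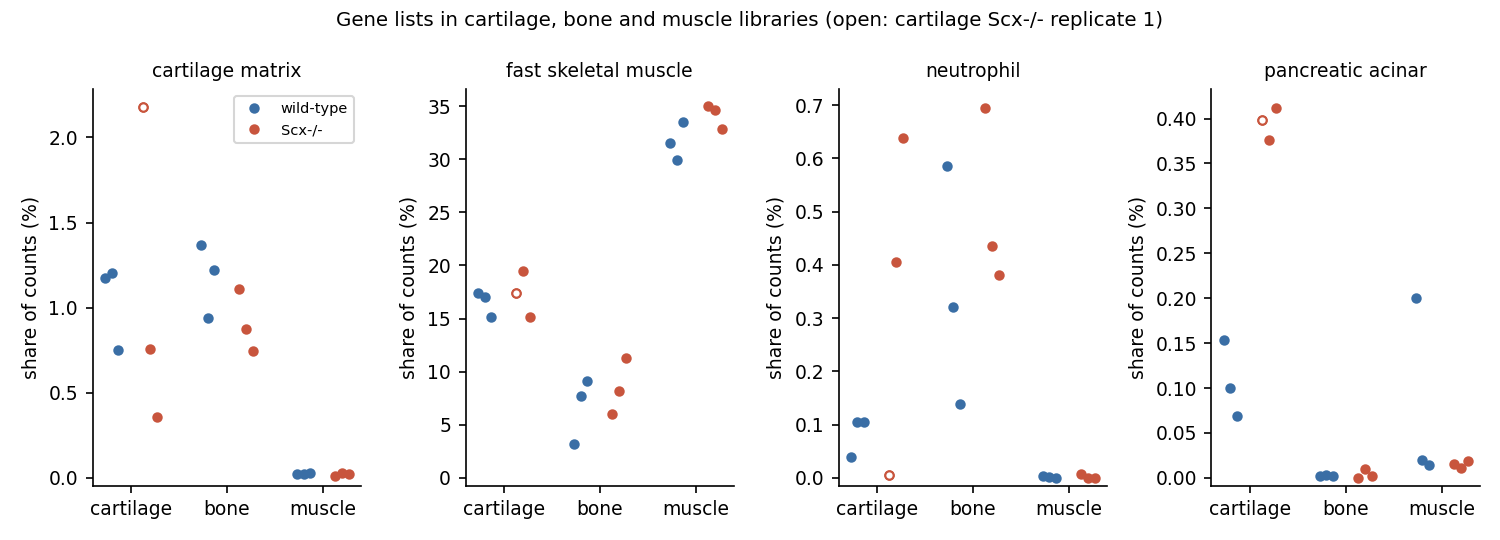
Share of counts (%, linear axis) taken by the cartilage matrix, fast skeletal muscle, neutrophil, and pancreatic acinar gene lists in each cartilage, bone, and muscle library, with wild type and Scx-/- apart and the library labelled Scx-/- replicate 1 drawn open. Cartilage and bone overlap in cartilage matrix genes, and fast muscle genes take 15.1% to 19.5% of the cartilage counts.

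Over all 6 libraries, 3 of 13534 genes (0.0222%) passed the edgeR quasi-likelihood test at an adjusted p below 0.05. Ctrb1 and Hba-a1 were higher in Scx-/- cartilage (0.0148%), and Ucp1 was lower (0.00739%). None of the 3 is a cartilage gene. Leaving out one library at a time gave 0 calls for wild-type replicate 2 or Scx-/- replicate 3 (250 and 284 genes at an edgeR unadjusted p below 0.05), 1 for Scx-/- replicate 2, and 10 for wild-type replicate 1. By unadjusted p alone, 434 genes were below 0.05. With the thresholds of the study, an unadjusted p below 0.05 and a change over 2-fold, 429 genes passed (3.17%), of which 232 (1.71%) were higher and 197 (1.46%) lower.

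Ctrb1 encodes chymotrypsinogen B, a digestive protease made by the acinar cells of the pancreas. It had 70, 52, and 26 counts in the wild type and 233, 167, and 226 in Scx-/-. All 3 Scx-/- libraries were above all 3 wild-type libraries, with means of 865 ± 85.2 and 208 ± 114 CPM (SD, n = 3). The difference was 4.28-fold, a log2 fold change of 2.10 ± 0.45 (SE, edgeR adjusted p = 0.0470).

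Hba-a1, which encodes the alpha chain of hemoglobin, had 62, 59, and 201 counts in the wild type and 75, 287, and 661 in Scx-/-. The groups overlapped, since Scx-/- replicate 1 had 310 CPM and wild-type replicate 3 had 729 CPM. The log2 fold change was 1.76 ± 0.39 (SE, edgeR adjusted p = 0.0470). Hba-a2, a near-identical copy of the gene, had 5, 0, and 56 counts against 0, 0, and 2, and the counting could split reads between the copies, so the value for either gene is uncertain.

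Ucp1 encodes the uncoupling protein by which brown fat makes heat. It had 0, 42, and 149 counts in the wild type and 1, 7, and 0 in Scx-/-. The change of -4.17 ± 0.94 on the log2 scale (SE, edgeR adjusted p = 0.0470) rested on 2 wild-type libraries, and wild-type replicate 1 was at 0 like Scx-/- replicate 3. DESeq2 called none of the 13534 genes, with 417 at an unadjusted p below 0.05.

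**Figure D2:**
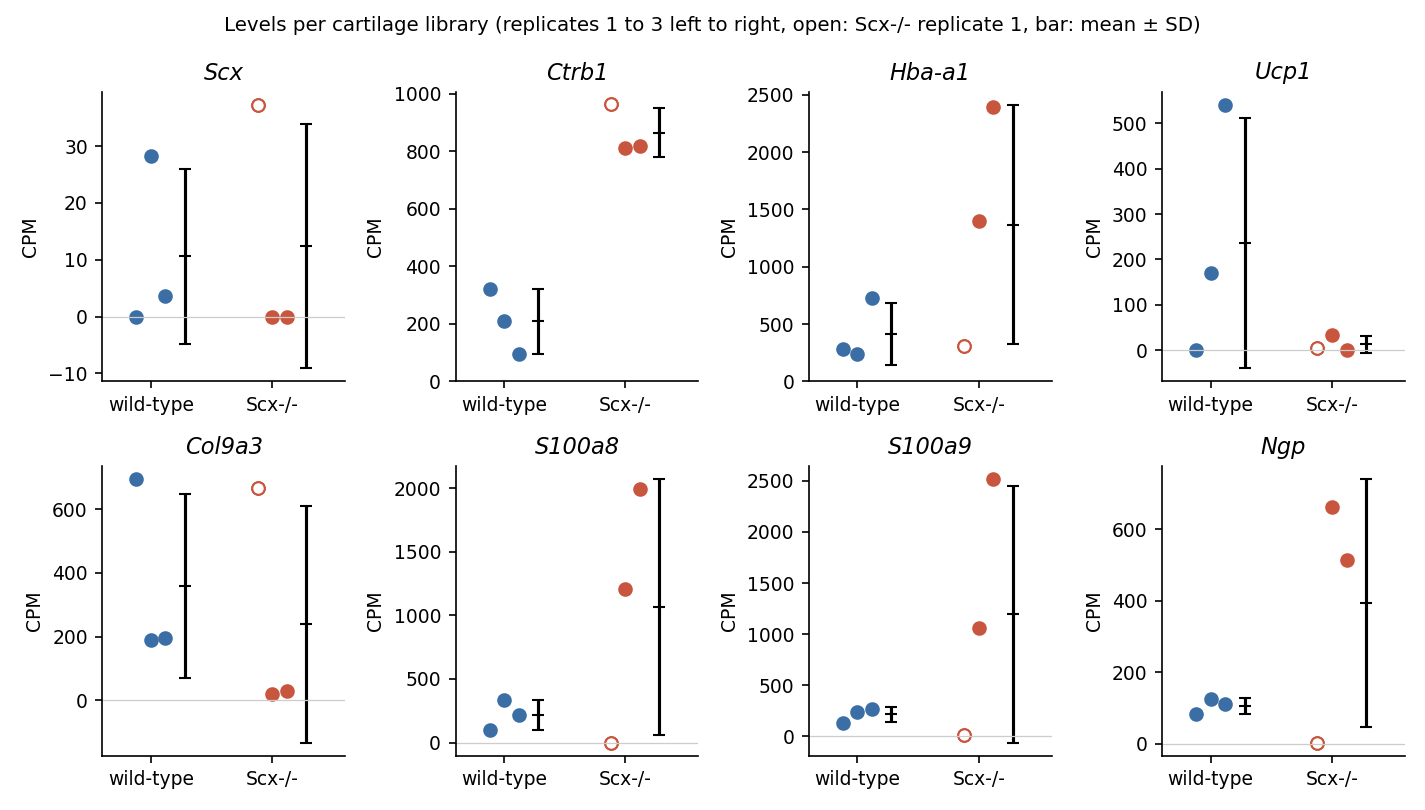
CPM (linear axis) of Scx and of 7 genes called with or without the library labelled Scx-/- replicate 1, one point per library with replicates 1 to 3 from left to right, that library drawn open, and bars at the mean ± SD of 3 libraries. Ctrb1 separates the genotypes in all libraries, and for S100a8, S100a9, and Ngp the open point lies below all the others.

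Without the library labelled Scx-/- replicate 1, 5 of 13032 genes (0.0384%) were called. S100a8, S100a9, Ngp, and Hba-a1 were higher (0.0307%) and Col9a3 was lower (0.00767%). Ctrb1 and Ucp1 lost their calls, with log2 fold changes of 2.01 and -3.77 and edgeR adjusted p values of 0.112 and 0.374. With the study thresholds 327 genes passed (2.51%), 175 higher (1.34%) and 152 lower (1.17%). With wild-type replicate 1 also left out, 23 genes were called, and with wild-type replicate 2 also left out, 5.

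Col9a3, which encodes a chain of type IX collagen that coats the collagen fibrils of cartilage, was the one cartilage gene called. It had 151, 47, and 54 counts in the wild type and 161, 4, and 8 in Scx-/-. Scx-/- replicate 1 was thus at the level of the highest wild-type library, and the other two were below all wild-type libraries. The log2 fold change was -3.81 ± 0.80 (SE, edgeR adjusted p = 0.00684) without that library and -0.55 ± 1.44 (adjusted p = 0.984) with it. Col9a3 lies at chr2:180597790-180622189 (GRCm38.p6). In the same Scx-/- replicates 2 and 3, neutrophil genes took 0.405% and 0.639% of counts against 0.0395% to 0.106% in the wild type, and erythroid genes 0.274% and 0.457% against 0.0629% to 0.290%. The part of these shares in the Col9a3 call and in the values of the cartilage matrix list without Scx-/- replicate 1 was not tested.

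Several other abundant cartilage matrix genes were also high in that library. Col2a1, which encodes the main collagen of cartilage, had 874, 1474, and 1023 counts in the wild type and 2477, 770, and 378 in Scx-/-. Acan, encoding aggrecan, the proteoglycan that holds water, had 187, 126, and 112 counts against 306, 72, and 34. Hapln1, which links aggrecan to hyaluronan, had 100, 146, and 93 counts against 256, 45, and 37. In each, Scx-/- replicate 1 was the highest of the 6 libraries and replicates 2 and 3 were lower than at least 2 of the wild-type libraries. Col11a1, a fibril-forming partner of type II collagen, had 125, 216, and 249 counts against 342, 111, and 76, again with Scx-/- replicate 1 on top. Other members did not follow this order. Comp, which binds matrix collagens, was highest in wild-type replicate 2, with 61, 144, and 96 counts against 126, 34, and 57. Lect1, encoding the vessel growth inhibitor chondromodulin, was at 601, 290, and 138 CPM in the wild type and 608, 419, and 120 CPM in Scx-/-, so Scx-/- replicate 2 stood above 2 wild-type libraries.

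Over the 22 cartilage matrix genes with counts, 0 passed the adjusted test in 6 libraries, and 15 had a fold change above 0, with a median log2 fold change of 0.18 against 0.07 over all genes tested. In 5 libraries 1 passed, 6 were above 0, and the median was -0.74 against -0.11 over all genes. The study thresholds took 1 member in 6 libraries, 3110079O15Rik, the gene of the chondrocyte proteoglycan Snorc, at 56, 61, and 30 counts against 199, 43, and 77, beside 1.71% of all genes higher. They took 6 members in 5 libraries, all lower, beside 1.17% of all genes, namely Acan, Hapln1, Col9a3, Chad, Cilp2, and Cytl1. The CPM values of 7 members were below all wild-type libraries without Scx-/- replicate 1, beside 6.66% of all genes, and that of 1 was above, beside 7.95%. The share of counts overlapped between genotypes over the 6 libraries (exact permutation p = 0.9, two-sided). The smallest p that 3 against 3 allows is 0.1, so this test could not pass 0.05. Without Scx-/- replicate 1 the difference in share went from 0.0550 to -0.484 percentage points.

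**Figure D3:**
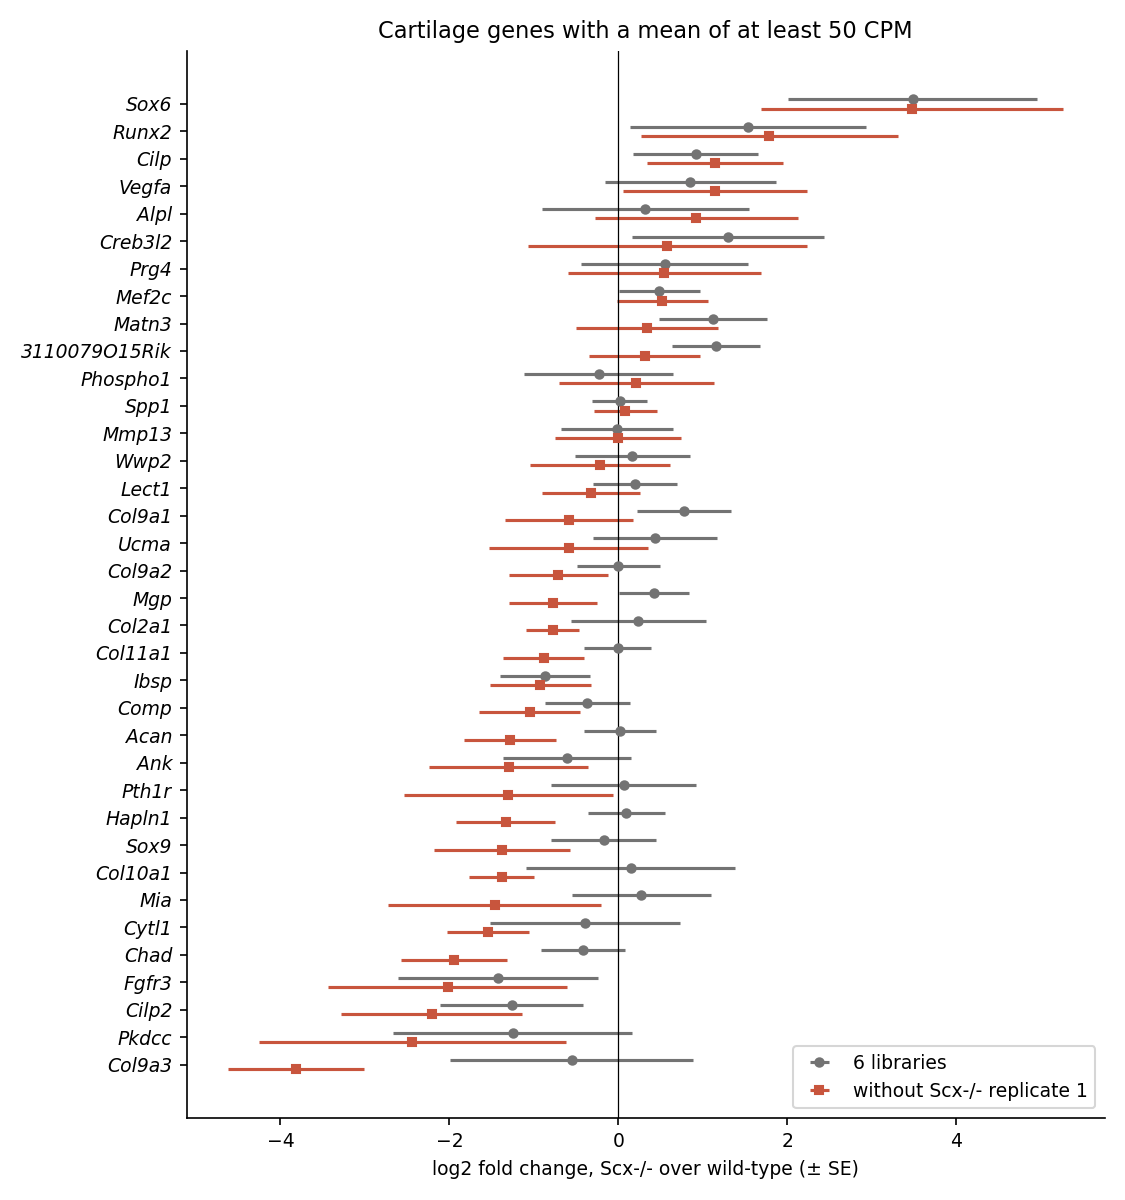
Log2 fold change of Scx-/- over wild-type cartilage with its SE for genes of the cartilage matrix, chondrocyte regulator, and hypertrophic lists with a mean of at least 50 CPM, from all 6 libraries (grey) and without the library labelled Scx-/- replicate 1 (red squares). The red squares mostly lie to the left of the grey points, as for Col2a1 (-0.78 against 0.24) and Col9a3 (-3.81 against -0.55).

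Among regulators of chondrocytes, 13 of 18 listed genes had counts and 0 were called with or without that library. Past the study thresholds were 2 in 6 libraries, Sox6 and Gli1, both higher, beside 1.71% of all genes, and 0 in 5. Sox9, the master regulator of chondrocyte fate, had 82, 50, and 16 counts in the wild type and 93, 27, and 8 in Scx-/-, so the genotypes overlapped. Sox6, its partner at chondrocyte enhancers, had 0, 0, and 7 counts against 25, 23, and 23. All 3 Scx-/- libraries were above the wild type, with a log2 fold change of 3.49 ± 1.48 (SE, edgeR unadjusted p = 0.0181) that did not pass the adjustment over all genes. This was not particular to cartilage. In bone, Sox6 was at 8.67, 0, and 63.7 CPM in the wild type and 154, 193, and 71.0 CPM in Scx-/-. Vascular libraries were at 64.8, 25.9, and 13.7 CPM against 170, 220, and 67.1 CPM. The genotypes overlapped in muscle, adipose, heart, and spleen. Sox5 was at 0 in all 6 cartilage libraries. The median of the list was 0.15 in 6 libraries and -1.03 in 5, or -0.22 with genes at 0 in one group set to the bound that a floor of 3 counts over the group gives.

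Genes of hypertrophic cartilage, 12 of 12 with counts, also showed no call. Col10a1, the type X collagen gene, had 706, 606, and 348 counts in the wild type and 1369, 304, and 70 in Scx-/-. Panx3, a channel protein of hypertrophic chondrocytes and osteoblasts, had 4, 10, and 11 counts against 1, 0, and 0, below the wild type in every Scx-/- library but near the floor. Mef2c, a transcription factor that drives hypertrophy, was above the wild type in every Scx-/- library, at 266, 379, and 348 CPM against 426, 463, and 449 CPM. These were the members without overlap, 1 of 12 in each direction beside 3.27% lower and 3.31% higher of all genes. The list took 0.629%, 0.658%, and 0.482% of wild-type counts and 0.979%, 0.427%, and 0.394% of Scx-/- counts, so the 2 Scx-/- replicates 2 and 3 lay below all wild-type libraries and replicate 1 above them. Its median log2 fold change was 0.00 in 6 libraries and -0.39 in 5. Without replicate 1 the smallest exact p is 0.2.

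Fibrillar collagens and their processing partners were high in 2 wild-type libraries and low in the other. The list took 2.99%, 9.64%, and 9.16% of counts in the wild type and 3.83% to 4.80% in Scx-/-, so wild-type replicate 1 was below all Scx-/- libraries and the other two above them (exact permutation p = 0.4, two-sided). Col1a1, encoding the main collagen of bone, tendon, and skin, had 1532, 9199, and 9581 counts against 2829, 2869, and 3962. Serpinh1, the collagen chaperone Hsp47, had 59, 553, and 502 counts against 233, 79, and 151. Its log2 fold change was -1.11 ± 0.37 (SE, edgeR unadjusted p = 0.00304), not a call over all genes.

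Of the 27 such genes with counts, 6 had a fold change above 0 and the median was -0.70, against 0.07 over all genes. Col6a2, Col6a3, and Serpinh1 were past the study thresholds, all lower, beside 1.46% of all genes, and none was called by the adjusted test. Col6a2, a chain of the pericellular type VI collagen, had 72, 266, and 204 counts against 86, 99, and 39. The genotypes overlapped for all 27, while 3.31% and 3.27% of all genes were higher or lower without overlap.

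The tendon and ligament list, to which Scx belongs, had counts for 19 of 20 genes, with Mkx at 0. None was called. Tnmd, the tendon membrane protein tenomodulin, had 11, 33, and 45 counts in the wild type and 45, 10, and 10 in Scx-/-, and Fmod, encoding the collagen-binding proteoglycan fibromodulin, had 109, 164, and 153 against 245, 62, and 77. Both were highest in the library labelled Scx-/- replicate 1, which also held the Scx counts. Lum, encoding lumican, another such proteoglycan, had 75, 257, and 322 counts against 110, 58, and 93, and it was the one of 19 members past the study thresholds in 6 libraries, beside 1.46% of all genes (log2 fold change -1.18 ± 0.43, SE, edgeR unadjusted p = 0.00613).

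Ogn, Igfbp6, and Htra3 were below the wild type in all 3 Scx-/- libraries, 3 of 19 genes beside 3.27% of all genes. Ogn, the gene of the small proteoglycan osteoglycin, had 38, 42, and 41 counts in the wild type and 27, 16, and 26 in Scx-/-. Htra3, a secreted serine protease, had 25, 39, and 30 counts against 11, 8, and 6. Kera, encoding keratocan, had 0, 39, and 23 counts against 20, 0, and 0, with the Scx-/- counts again in replicate 1 alone. The median of the list was -0.28 in 6 libraries and -0.89 in 5. In the 5 libraries 3 members were past the study thresholds, all lower, beside 1.17% of all genes, and 7 were below the wild type without overlap, beside 6.66%.

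Among 84 listed genes of BMP and TGF-beta signaling, 76 had counts and 0 were called. Past the study thresholds were 4, all lower and all inhibitors, beside 1.46% of all genes. CPM values did not overlap for 3 genes that were higher in Scx-/- and 5 that were lower, beside 3.31% and 3.27% of all genes. Without the library labelled Scx-/- replicate 1, 4 were past the study thresholds, all lower, beside 1.17% of all genes. They were the inhibitors Skil, Htra1, and Fkbp1a and the target Ctgf. CPM values then did not overlap for 4 higher and 11 lower genes, beside 7.95% and 6.66% of all genes.

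The ligands had counts for 13 of 16 genes, and most were near the floor. Gdf10, a BMP-family ligand, had 15, 6, and 26 counts in the wild type and 20, 21, and 20 in Scx-/-, and Mstn, the muscle growth inhibitor myostatin, had 0, 3, and 3 against 15, 6, and 12, above the wild type in all 3 Scx-/- libraries. Gdf5, a ligand of joint formation, was at 0. The median log2 fold change of the ligands was 0.60, or 0.15 with genes at 0 in one group set to their bound, and 0.71 or 0.15 without the library labelled Scx-/- replicate 1. Of the receptors, 11 of 12 had counts, and their share of all counts was 0.0450%, 0.0444%, and 0.0475% in the wild type and 0.0529%, 0.0448%, and 0.0478% in Scx-/-. Bmpr1a, a type I BMP receptor, had 16, 24, and 34 counts against 19, 21, and 13, which overlapped.

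The inhibitors had counts for 34 of 38 genes and took 0.223%, 0.529%, and 0.408% of wild-type counts and 0.259%, 0.227%, and 0.244% of Scx-/- counts. Fkbp1a, whose product FKBP12 binds type I TGF-beta receptors and keeps them silent, had 50, 168, and 118 counts against 32, 4, and 40. All Scx-/- libraries were below the wild type, with a log2 fold change of -2.09 ± 0.57 (SE, edgeR unadjusted p = 0.000254), which gave an adjusted p of 0.572 over all genes. Ski, a nuclear corepressor of Smad proteins, had 33, 98, and 37 counts against 8, 22, and 16, again with no overlap (-1.71 ± 0.74, SE, edgeR unadjusted p = 0.0205).

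Pmepa1, which encodes a membrane protein that holds back receptor-activated Smads, had 13, 118, and 37 counts in the wild type and 12, 16, and 23 in Scx-/-. Skil, a relative of Ski, had 0, 12, and 55 counts against 0, 2, and 0. In both, the wild-type libraries were spread and overlapped with Scx-/- (log2 fold changes of -1.58 ± 0.74 and -4.51 ± 1.90, SE). Smurf2 and Bambi were also below the wild type in every Scx-/- library, at 9, 5, and 11 counts against 3, 0, and 1 for the ubiquitin ligase Smurf2 and 7, 8, and 6 against 0, 4, and 3 for the pseudoreceptor Bambi. Grem1, a secreted BMP antagonist, went the other way with 5, 4, and 3 counts against 7, 7, and 25. Over the 34 genes, 13 had a fold change above 0 and the median was -0.32, and without the library labelled Scx-/- replicate 1 it was 6 and -0.76 (-0.55 with bounds), against -0.11 over all genes.

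The effectors and target genes had counts for 18 of 18 genes, of which 9 had a fold change above 0 (median -0.02), or 7 without the library labelled Scx-/- replicate 1 (median -0.33). Smad5, which carries BMP signals to the nucleus, had 14, 15, and 15 counts in the wild type and 0, 2, and 7 in Scx-/-, with no overlap. Id1, a direct BMP target, had 30, 19, and 9 counts against 6, 17, and 43, which overlapped. Ctgf, a matricellular target of TGF-beta, had 120, 114, and 47 counts against 77, 22, and 37.

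**Figure D4:**
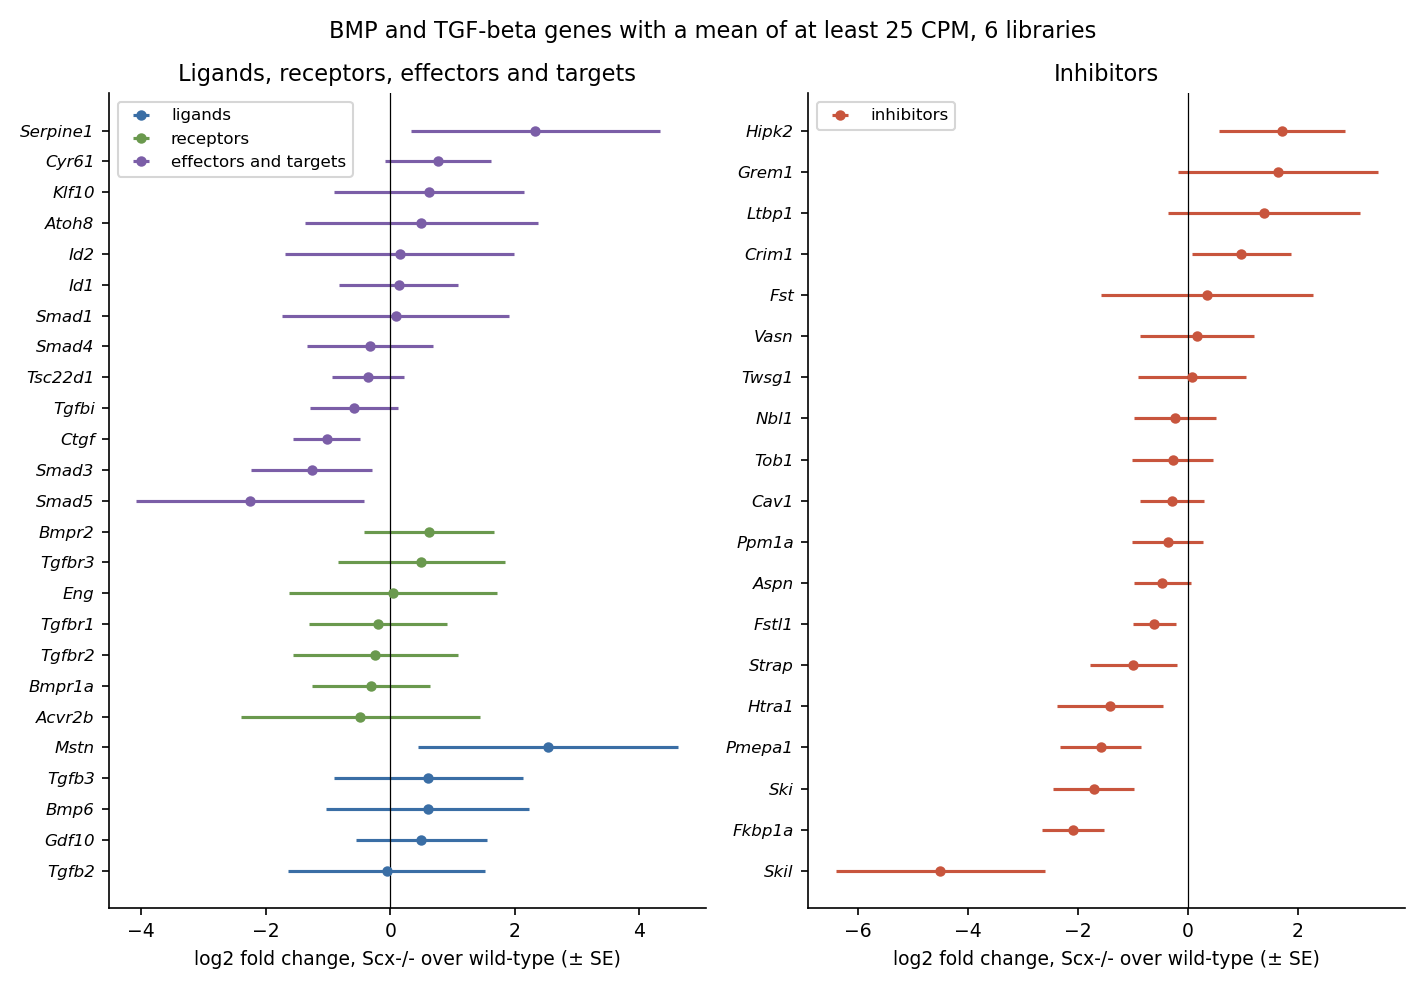
Log2 fold change of Scx-/- over wild-type cartilage with its SE in all 6 libraries for BMP and TGF-beta genes with a mean of at least 25 CPM, with ligands, receptors, and effectors on the left and inhibitors on the right. The 4 inhibitors past the study thresholds, Fkbp1a, Ski, Pmepa1, and Skil, lie between -4.51 and -1.58, and no gene shown was called after adjustment.

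The genes called as higher without the library labelled Scx-/- replicate 1 belong to neutrophils and red cells. S100a8 and S100a9 encode the calprotectin subunits of neutrophils. S100a8 had 21, 83, and 60 counts in the wild type and 0, 248, and 550 in Scx-/-, and S100a9 had 29, 60, and 75 against 3, 218, and 694. Scx-/- replicates 2 and 3 were above every wild-type library, and replicate 1 below all of them. Without it the log2 fold changes were 2.96 ± 0.44 (SE, edgeR adjusted p = 1.92e-07) and 3.12 ± 0.44 (adjusted p = 1.24e-08). Ngp, a protein of neutrophil granules, had 18, 31, and 31 counts against 1, 136, and 142, and was called with a log2 fold change of 2.52 ± 0.59 (SE, edgeR adjusted p = 0.0481).

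The whole neutrophil list, 12 of 12 genes with counts, took 0.0395%, 0.106%, and 0.105% of wild-type counts and 0.00620%, 0.405%, and 0.639% of Scx-/- counts. The bone libraries had 0.138% to 0.695%, so Scx-/- replicates 2 and 3 stood at the level of bone and the other 4 cartilage libraries below it. Elane and Mpo, genes of immature neutrophils, had at most 6 counts in any library. The erythroid list showed the same order of Scx-/- libraries, with 0.0629%, 0.290%, and 0.169% against 0.0434%, 0.274%, and 0.457%. Alas2, the first enzyme of heme synthesis in red cells, had 26, 20, and 71 counts against 22, 58, and 236. Car2, a carbonic anhydrase of red cells and osteoclasts, had 2, 29, and 30 counts against 8, 84, and 117. Hbb-bs, a beta globin gene with near-identical copies, had 520 counts in wild-type replicate 2 and at most 1 elsewhere, so globin values are uncertain. S100a8, S100a9, and Ngp are members of the neutrophil list and Hba-a1 of the erythroid list, so these shares move with the called genes by construction. The part of neutrophil and erythroid content in the calls was not tested.

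Of the osteoblast and osteocyte list 14 of 15 genes had counts, with 0 called and a median log2 fold change of -1.21, or -0.94 with bounds. Phex, an osteocyte peptidase, had 1, 14, and 15 counts against 0, 0, and 0. The osteoclast list took 0.132% ± 0.0658 of wild-type counts and 0.127% ± 0.0731 of Scx-/- counts (SD, n = 3), and replicate 1 was the lowest of its genotype in both groups.

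**Figure D5:**
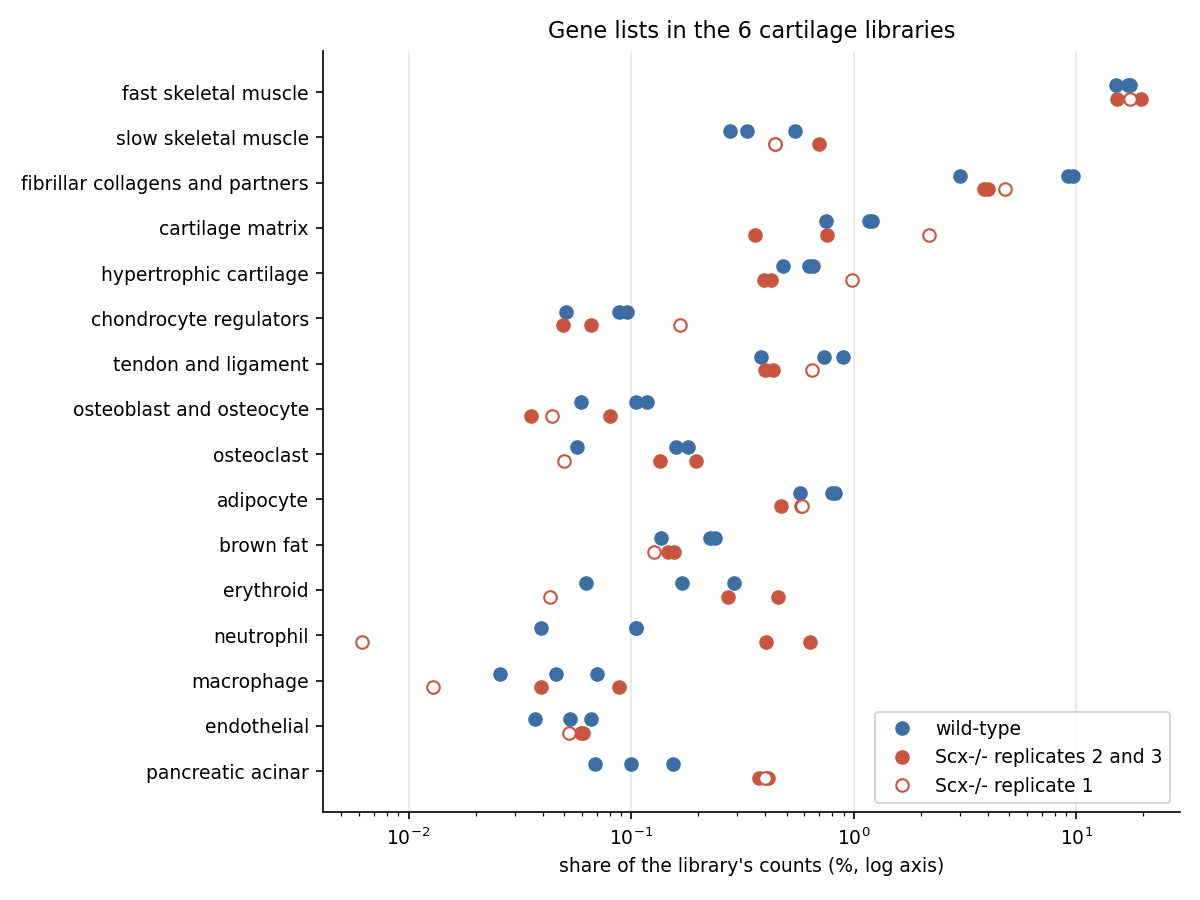
Share of counts (%, log axis) taken by 16 gene lists in each cartilage library, with wild type in blue, Scx-/- in red, and the library labelled Scx-/- replicate 1 drawn open. The pancreatic acinar list alone separates the genotypes among those shown, at 0.0689% to 0.154% against 0.376% to 0.412%.

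Muscle genes, the largest of the listed groups by share of counts, showed 0 calls among 18 fast and 12 slow muscle genes. Acta1, the skeletal muscle actin gene, had 12285, 14067, and 14328 counts in the wild type and 13785, 12722, and 14954 in Scx-/-. Tnnc1, the troponin C of slow and cardiac fibers, had 45, 26, and 40 counts against 66, 63, and 122, above the wild type in all Scx-/- libraries but not called. The slow list took 0.543%, 0.279%, and 0.331% of counts against 0.445%, 0.443%, and 0.701% (exact permutation p = 0.3, two-sided).

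Actc1, the cardiac actin that skeletal muscle expresses while it develops or regenerates, had 57, 87, and 57 counts in wild-type cartilage and 7, 5, and 14 in Scx-/- cartilage. All Scx-/- libraries were below the wild type, at a log2 fold change of -2.89 ± 0.76 (SE), but its edgeR adjusted p within cartilage was 0.356. Of the 12 genes of developing and regenerating muscle with counts, 9 had a fold change above 0, and the median was 0.61, or 0.32 with bounds. Myf6, a myogenic factor of mature fibers, was with Actc1 below the wild type in all Scx-/- libraries, at 23, 19, and 4 counts against 0, 0, and 3, which made 2 of 12 beside 3.27% of all genes. That list took 0.0459%, 0.0605%, and 0.0558% of wild-type counts and 0.0298%, 0.0541%, and 0.0515% of Scx-/- counts, which overlapped. In muscle, Actc1 was at 4209, 10180, and 15950 CPM in the wild type and 5882, 9343, and 8564 CPM in Scx-/-, and in bone at 347, 1355, and 2185 CPM against 682, 893, and 1798 CPM, so the genotypes overlapped in both. The genotype difference itself was tested between tissues over 18 libraries and 6399 genes. It differed between cartilage and muscle for 2 genes (0.0313%) and between cartilage and bone for 1 (0.0156%). Actc1 was in both, lower in cartilage by -2.72 ± 0.56 against muscle (SE, edgeR adjusted p = 0.00647) and by -2.73 ± 0.56 against bone (adjusted p = 0.00787) on the log2 scale.

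Fmod was the other gene that differed against muscle, by 4.23 ± 0.97 (SE, edgeR adjusted p = 0.0450). In muscle it was at 32.9, 43.6, and 276 CPM in the wild type and 2.37, 7.77, and 6.93 CPM in Scx-/-, with no overlap, and in cartilage its log2 fold change was -0.04 ± 0.43. The 32.9 CPM of muscle wild-type replicate 1 was also the value of S100a8 and Cdo1 in that library. It was the lowest value above 0 among the genes looked up there, so the lack of overlap rests on very few counts. Without the library labelled Scx-/- replicate 1 of cartilage, 0 genes differed in either comparison by the edgeR test, with 413 and 679 at an unadjusted p below 0.05. The Actc1 differences were then nearly as large, at -2.61 ± 0.61 against muscle (SE, edgeR adjusted p = 0.171) and -2.62 ± 0.62 against bone (adjusted p = 0.134), while that of Fmod against muscle was 3.34 ± 1.07 (adjusted p = 0.785).

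The adipocyte list was lower in Scx-/- in all but 1 of its fold changes, with no call. The 12 adipocyte genes took 0.799%, 0.821%, and 0.573% of wild-type counts and 0.583%, 0.577%, and 0.469% of Scx-/- counts, and the median log2 fold change was -0.54. Pck1, the gluconeogenic and glyceroneogenic enzyme, had 77, 39, and 74 counts against 32, 25, and 4, below the wild type throughout but not called. The brown fat list took 0.225%, 0.136%, and 0.238% of wild-type counts against 0.126%, 0.156%, and 0.146%, so that wild-type replicate 2, with 42 Ucp1 counts, was within the Scx-/- range. Cidea, another brown fat marker, had 15, 1, and 32 counts against 0, 4, and 10. The part of the fat content in the Ucp1 result was not tested.

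Ctrb1 moved with other pancreatic genes. A list of 24 acinar genes, which was written after the Ctrb1 values were seen and so gets no test of its own, had counts for 20. Their share was 0.154%, 0.0996%, and 0.0689% in the wild type and 0.399%, 0.376%, and 0.412% in Scx-/-, and in 17 of the 20 all Scx-/- libraries were above the wild type, beside 3.31% of all genes. Cela1, an elastase, had 22, 20, and 23 counts against 91, 50, and 144, and Cpb1, a carboxypeptidase, had 7, 6, and 5 against 51, 42, and 57. Ctrb1 was the one member called, and 11 were past the study thresholds, all higher, beside 1.71% of all genes. In the survey the list took a mean of 67.9% of counts in the adipose libraries, up to 12.02% in spleen, 6.32% in intestine, and 3.40% in stomach, 0.0105% to 0.201% in muscle, and at most 0.00966% in bone. Among the 15 other tissues, liver was the one where all Scx-/- libraries were also above the wild type, with medians of 0.0786% and 0.0469%. The part of this list in the Ctrb1 result was not tested.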

How the data were processed

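RNA of 6 cartilage samples was measured by multiplexed RNA sequencing, in which each sample is barcoded at reverse transcription and the samples are then pooled. The authors aligned reads with Bowtie2 to mm10 and deposited raw counts per gene from HTSeq, whose strand setting and annotation are not stated. Genes with a count in at least 1 cartilage library were compared with edgeR 4.0.16 in R 4.3.3 (TMM, robust glmQLFit and glmQLFTest, Benjamini-Hochberg over all genes tested), with and without the library labelled Scx-/- replicate 1. The difference between tissues was an interaction contrast over cartilage, muscle, and bone, for genes passing filterByExpr. DESeq2 1.42.0, used by the study, was an alternative. The fits were also run on simulated counts with known changes, the outcome of which is not given here. Gene list shares are percents of a library's counts, with exact permutation tests from scipy 1.17.1. Gene coordinates came from the GENCODE annotation and promoters from a RefSeq table (GRCm38.p6), and 9872 of the 13534 genes tested had a promoter entry. Floors of 3 counts cover counting error only, while SD and SE values include the spread between libraries. The SE of an edgeR fold change was derived from its quasi-likelihood F statistic.

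The members, the gene lists, and the tests were chosen with earlier results of these data known. Named genes were Scx and Bop1, the most abundant and the called members of the gene lists, BMP and TGF-beta genes past the study thresholds, and genes called with or without Scx-/- replicate 1 or between tissues. Of the 3 called genes whose promoters are shown, Hba-a1 and Ucp1 were added after their values were seen, since their groups overlapped. Other genes named with counts were also chosen after their values were seen, among list members. No pair of replicates looked like one library deposited again, with a chi-square of 11.1 to 17.6 per degree of freedom. This does not tell whether they came from separate mice.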

Additional observations from a re-analysis of the deposited data

Results flagged for a closer look

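The genotype difference of Actc1 differed between tissues by the interaction test, being -2.72 on the log2 scale in cartilage minus muscle (edgeR adjusted p = 0.00647) and -2.73 in cartilage minus bone (adjusted p = 0.00787). It was lower in 3 of 3 Scx-/- cartilage libraries than in any wild-type one. The difference of Fmod in cartilage minus muscle was 4.23 (edgeR adjusted p = 0.0450), with Fmod lower in 3 of 3 Scx-/- muscle libraries and the genotypes overlapping in cartilage. In muscle wild-type replicate 1, Fmod rested on very few counts, at 32.9 CPM. Without cartilage Scx-/- replicate 1 none of these tissue differences passed the test, with Actc1 nearly as large, at -2.61 (edgeR adjusted p = 0.171) and -2.62 (adjusted p = 0.134), and Fmod at 3.34 (adjusted p = 0.785).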

How the results depend on the processing

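The 3 genes called over 6 libraries became 0 with filterByExpr, with DESeq2, with the replicate block, and with libraries thinned to the smallest total, where 117, 417, 137, and 422 genes had an unadjusted p below 0.05. They became 1 in the 18-library fit, and leaving out single libraries gave 0 (wild-type replicate 2 or Scx-/- replicate 3, with 250 and 284 genes at an unadjusted p below 0.05) to 10 (wild-type replicate 1), with 5 for the library labelled Scx-/- replicate 1 and 1 for Scx-/- replicate 2. Leaving out wild-type replicate 1 and Scx-/- replicate 1 together, an alternative chosen after seeing the data, gave 23 calls. The 429 genes past the study thresholds became 111 with filterByExpr, 128 with the replicate block, and 1015 in the 18-library fit, and 247 to 333 when libraries were left out, the lowest without wild-type replicate 2. Over all alternatives the adjusted p of the called genes ranged from 0.000134 to 0.843 for Ctrb1, from 3.2e-05 to 1.0 for Hba-a1, and from 0.000134 to 1.0 for Ucp1.

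Without Scx-/- replicate 1, the 5 calls became 2 with filterByExpr or DESeq2 and 17 with the replicate block. They were 5 (also without wild-type replicate 2) to 23 (also without wild-type replicate 1) when a wild-type library was left out. The 327 past the study thresholds became 200 with filterByExpr and 204 with the replicate block, while DESeq2 gave 144 higher and 289 lower against 175 and 152. The tissue differences fell from 2 genes (muscle) and 1 (bone) to 0 and 0 without cartilage Scx-/- replicate 1 or with no filter beyond 1 count (807 and 1140 genes at an unadjusted p below 0.05), were 1 and 1 with the replicate block, and were 4 and 1 with RLE size factors. With no filter beyond 1 count, Actc1 was at -2.76 against muscle (edgeR adjusted p = 0.0521) and -2.78 against bone (adjusted p = 0.0513). Fmod against muscle was then at 4.21 (edgeR adjusted p = 0.628). No pairing of the samples by replicate number was seen. Same-numbered libraries correlated at -0.0150, 0.00587, and 0.0358 after removal of group means, but at such low counts a pairing could go unseen. Single genes whose direction turned were Fmod, 0.013 when thinned and -0.996 to 0.27 when libraries were left out, Col2a1, -0.22 with the replicate block and -0.86 to 0.69, and Col9a3, -3.81 to 0.42. Leaving out a library moved the median log2 fold change of all genes from 0.07 to between -0.15 and 0.27. The causes were not tested beyond the fewer genes or samples of each alternative. None of the 35 list shares moved by more than the larger SD of the 2 genotypes. Leaving out 1 of 3 libraries cannot move a mean that far, so for those alternatives this shows nothing. The difference of 14 changed sign when some library was left out. Without Scx-/- replicate 1, 7 did, among them cartilage matrix (0.0550 to -0.484 percentage points), chondrocyte regulators (0.0153 to -0.0205), and hypertrophic cartilage (0.0101 to -0.180), and that of the fibrillar collagens went from -3.05 to -5.19 without wild-type replicate 1.

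The median count of the genes tested was 2, the biological coefficient of variation was 1.21, and a count of 0 allowed 10.9 to 14.6 CPM.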

Other observations

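Foxo4, an X-linked forkhead transcription factor, was chosen after its values were seen. It had 0, 0, and 0 counts in wild-type cartilage and 14, 35, and 34 in Scx-/- cartilage, at least 28.4-fold higher against a floor of 3 counts over the wild-type group, with an edgeR adjusted p of 0.129. Among immediate early genes, Btg2, an antiproliferative factor, had 64, 27, and 33 counts in the wild type and 26, 6, and 2 in Scx-/-, below the wild type in 3 of 3 libraries, while 9 of the 16 genes with counts had a fold change above 0 (median 0.04) and 0 were called. Btg2 and Egr2 were past the study thresholds and below the wild type without overlap, 2 of 16 beside 1.46% and 3.27% of all genes, and the list took 0.108% of counts on average in each genotype. Among clock genes, Tef, a transcription factor under circadian control, had 2, 9, and 8 counts against 15, 26, and 45, above the wild type in 3 of 3 libraries. Of the 12 clock genes with counts, 3 had a fold change above 0 (median -1.07, or -0.94 with bounds), 0 were called, and 2, both higher, were past the study thresholds, beside 1.71% of all genes. The clock list took 0.0396% ± 0.00507 of wild-type and 0.0376% ± 0.00756 of Scx-/- counts (SD, n = 3, exact permutation p = 0.8, two-sided). Proliferation genes took 0.0442% ± 0.0184 of wild-type counts and 0.0655% ± 0.0511 of Scx-/- counts (SD, n = 3), with 0 of 17 called. Without the library labelled Scx-/- replicate 1 (0.0165%), the Scx-/- libraries at 0.0614% and 0.118% were both above the wild type, of which the highest was at 0.0613%, and the difference was 0.0458 in place of 0.0213 percentage points. The neutrophil and erythroid shares put the Scx-/- libraries in the same order, and their part in this was not tested. Smooth muscle and endothelial lists overlapped between genotypes, at 0.167% ± 0.0337 against 0.165% ± 0.0165 and 0.0521% ± 0.0145 against 0.0577% ± 0.00454, with exact permutation p values of 1.0 and 0.7 (two-sided).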
